A study of Mus musculus with 6 samples.

Results

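The genes described here are 10 components of the Notch pathway, chosen by name out of 46078 genes in the tables: the ligands Jag1, Jag2, Dll1 and Dll4, the receptors Notch1, Notch2 and Notch3, and the target genes Hes1, Hes5 and Nrarp. They were followed in RNA sequencing counts of small intestinal adenomas from 6 mice aged 18 weeks, all of the mixed strain C57BL6/SV129 and all ApcMin/+, which means that one copy of the Wnt regulator Apc ends early and intestinal adenomas form. In the genotype miR-34a/b/c-/-;ApcMin/+ (knockout, 3 mice) the microRNAs miR-34a, miR-34b and miR-34c were deleted, and in miR-34a/b/c+/+;ApcMin/+ (wild-type, 3 mice) they were kept. Each library held RNA from 3 tumors pooled from 1 mouse, so the mouse is the replicate. The whole adenoma was used, with the stroma and vessels it holds, and in such bulk RNA fewer cells of a type and less RNA per cell cannot be told apart.

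Notch signaling passes between touching cells. A ligand of the Jagged or Delta-like family on one cell binds a Notch receptor on the next, the receptor is cut by ADAM proteases and then by γ-secretase, and the freed intracellular part enters the nucleus, where it joins the DNA-binding protein RBPJ and Mastermind proteins to switch on genes such as Hes1. In the intestinal crypt, active Notch keeps progenitors dividing and directs them to the absorptive lineage, while cells that carry Delta-like ligands become secretory, and the pathway also acts in blood vessels and their mural cells. Jag1, Dll1, Notch1 and Notch2 have been described as targets of miR-34.

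The deleted microRNAs act through their seed, bases 2 to 8, which pairs with complementary sites in the 3′ UTR of a target. The mature sequences of miR-34a-5p and miR-34b-5p (RefSeq, GRCm38.p6) are printed with the seed in capitals, and both carry the same GGCAGUG.
miR-34a-5p: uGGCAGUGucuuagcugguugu
miR-34b-5p: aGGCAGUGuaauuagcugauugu
Of 1738 mature microRNAs in the RefSeq table used, 4 had this seed, these and miR-449a-5p and miR-449c-5p, which were not deleted. The sequence of miR-34c-5p was not analysed here, so the 4 do not count it. The rows of Mir34a, Mir34b, Mir34c, Mir449a, Mir449b and Mir449c held 0 counts in each of the 6 libraries, so these tables neither check the genotype labels nor show the level of any of these microRNAs.

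Sites for the seed were sought in the longest annotated 3′ UTR of each gene (GENCODE M21, mm10), on the sense strand only. A site was CACTGCC (a match to the whole seed, 7mer-m8), CACTGCCA (the same followed by A, 8mer, counted once) or ACTGCCA (7mer-A1). Such a site was found in 4 of the 10 genes, Jag1, Dll1, Notch1 and Notch2, and in 24.8% of 14723 tested genes with a 3′ UTR. The site of Jag1, the 8mers of Dll1 and Notch2 and the first site of Notch1 after the stop codon are printed with the site in capitals, 1 for each gene, to show what the seed would pair with. All 4 lie in the exon that holds the 3′ UTR.
Jag1 7mer-m8, chr2:137081667-137081696, minus strand: ttagatttgccgtagagtaCACTGCCtgcc
Dll1 8mer, chr17:15367854-15367883, minus strand: gttagcagaggcgcccgaCACTGCCAgcct
Notch1 7mer-m8, chr2:26459334-26459363, minus strand: cttttattttccacagaaaCACTGCCtttt
Notch2 8mer, chr3:98149587-98149616, plus strand: cagagatgaagaagacaaCACTGCCAgtca
Notch1 held 5 sites of these classes (3 of the class 7mer-m8 and 2 of 7mer-A1) in 1628 bases, and Notch2 held 4 (1 of the class 8mer, 1 of 7mer-m8 and 2 of 7mer-A1) in 2917 bases. Dll1 had 2 in the shorter UTR of 676 bases, and Jag1 had 1 in 1568 bases. The UTRs of Jag2 (1070 bases), Dll4 (1329), Notch3 (1000), Hes1 (368), Hes5 (696) and Nrarp (1884) held none, against a median UTR length of 1306 bases over tested genes. These are matches of letters, and whether any of them is bound in adenoma cells was not tested.

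**Figure D1:**
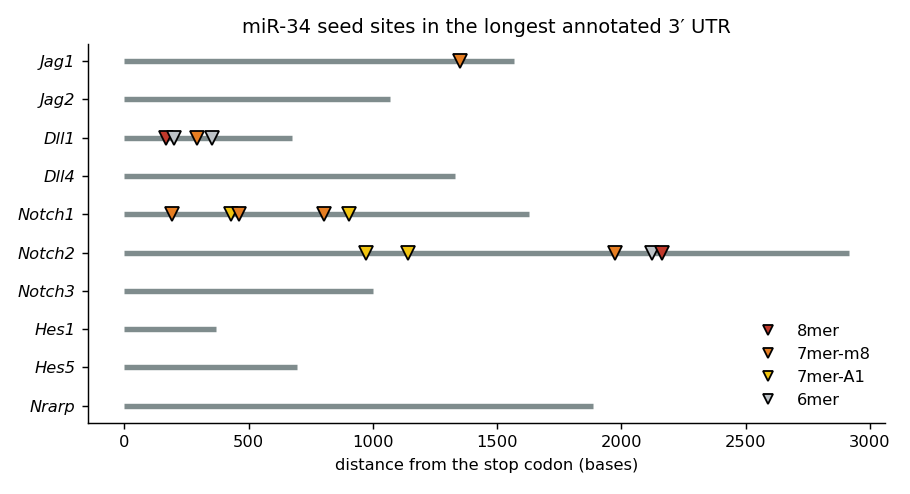
Longest annotated 3′ UTR of each of the 10 genes, drawn as a grey bar from the stop codon (x axis, bases), with triangles at matches to the miR-34 seed coloured by class, the shortest being the 6mer ACTGCC, which was not counted as a site. Notch1 and Notch2 carry 5 and 4 sites of 7 or 8 bases, Dll1 2 and Jag1 1, and the other genes carry none.

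Library totals ran from 26375035 to 38354355 counts, and 17254 genes, among them 9 of the 10 Notch genes, were abundant enough to be tested. The 12 markers of intestinal epithelium, which identify the tissue, were all detected, with a summed level of 14026 to 20992 CPM (counts scaled for depth, a gene's counts relative to the TMM-scaled total of its library). By edgeR's quasi-likelihood test 16 genes (0.0927% of those tested) differed between the genotypes at an adjusted p under 0.05, 0.0406% higher and 0.0522% lower in the knockout, and 0 of the 9 Notch genes were among them. At an unadjusted p under 0.05 there were 2 of the 9 (22.2%), Jag2 and Notch3, both higher. The same held for 5.85% of all genes tested, 3.27% higher and 2.58% lower. DESeq2 called 1 of the 9, Jag2, as higher, where it called 0.638% of the genes it tested, 0.267% higher and 0.371% lower. The values of the 3 knockout and the 3 wild-type mice did not overlap for 3 of the 9 genes (33.3%), Jag2 and Notch3 above and Hes1 below. Over all tested genes this share was 11.2%, with 5.86% above and 5.34% below. With 9 genes these shares rest on few members. The members were also chosen with earlier results of these data known, so the shares are a description and not a test. Of the 9, 6 had a higher and 3 a lower mean in the knockout, with a median log2 fold change of 0.16, where the median over all genes tested was 0.01.

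**Figure D2:**
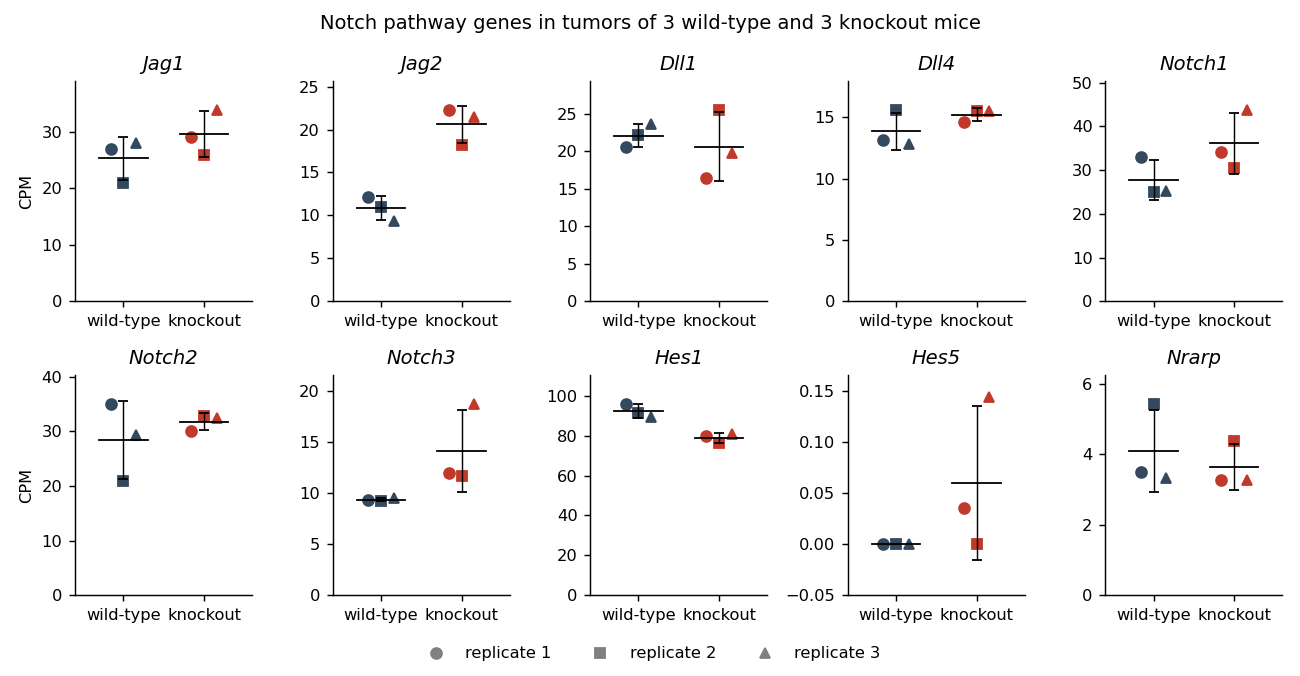
CPM (y axis) of each of the 10 genes in the 3 wild-type and 3 knockout mice, 1 point per mouse with its shape giving the replicate number, the horizontal line at the mean and the bar at ± 1 SD. Jag2 and Notch3 lie above and Hes1 lies below the wild-type range in each knockout mouse, and the other tested genes overlap.

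Among the ligands, Jag2 showed the largest difference. Jag2, a Jagged-family ligand anchored in the membrane of the sending cell (ENSMUSG00000002799, mm10 chromosome 12, 112908590 to 112929495), had 22.3, 18.2 and 21.4 CPM in the knockout mice and 12.2, 11.0 and 9.40 CPM in the wild-type mice. Each knockout mouse was above each wild-type mouse, and the gap between the groups was wider than the spread within either. The means were 20.6 ± 2.19 and 10.9 ± 1.41 CPM (SD, n = 3 each), a fitted 1.9-fold difference (log2 fold change 0.92 ± 0.17 SE, 95% interval 0.53 to 1.32). The unadjusted p was 0.000825 and the adjusted p 0.385 with edgeR, which does not pass over 17254 genes, whereas DESeq2 gave an adjusted p of 0.000318. No gene on the opposite strand overlaps Jag2.

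The other ligands overlapped between genotypes. Jag1, the Jagged ligand best known from vessels and bile ducts (ENSMUSG00000027276, chromosome 2, 137081456 to 137116644), had 29.1, 25.9 and 33.9 CPM in knockout and 27.0, 21.0 and 28.0 CPM in wild-type tumors. Its log2 fold change was 0.23 ± 0.17 SE (edgeR, adjusted p = 0.813), and leaving out either knockout replicate 3 or wild-type replicate 2 gave 0.11. Knockout replicate 3 was the highest and wild-type replicate 2 the lowest of the 6. Dll1, a Delta-like ligand of secretory progenitors (ENSMUSG00000014773, chromosome 17, 15367354 to 15376872), had 16.4, 25.5 and 19.8 CPM in knockout and 20.5, 22.1 and 23.6 CPM in wild-type tumors. The knockout mice held both the lowest and the highest Dll1 value, and the log2 fold change was -0.10 ± 0.18 (adjusted p = 0.907, edgeR). Dll4, a Delta-like ligand of secretory cells and of sprouting endothelium (ENSMUSG00000027314, chromosome 2, 119325784 to 119335962), varied least of the ligands, with 14.6, 15.5 and 15.5 CPM against 13.1, 15.6 and 12.8 CPM. Its log2 fold change was 0.13 ± 0.15 (adjusted p = 0.854, edgeR), and leaving out a wild-type mouse gave 0.23 for replicate 2 and 0.08 for replicates 1 and 3. Dll1 and Dll4 each overlap a gene on the opposite strand, A930024N18Rik (295 counts over the 6 libraries, against 4267 for Dll1) and Gm14207 (394 against 2904 for Dll4), and it is unknown here whether the counting used strand. Opposite-strand genes over Notch1 (0610009E02Rik) and Notch3 (Gm17276) held 57 and 52 counts, against 6478 and 2412. Those over Hes5 (Gm20421) and Nrarp (Gm38287) held 1 and 0 counts, against 7 and 767. Gm38287, at 25180781 to 25183339, covers nearly all of Nrarp. How far such overlaps lowered the counts of these genes was not tested, and few counts for the opposite-strand gene do not settle it.

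The ligands were also compared as parts of their summed level. Jag2 made up 20.2%, 15.2% and 17.4% of the summed level per kilobase of the 4 ligands in the knockout mice and 12.0%, 10.9% and 8.96% in the wild-type mice, with no overlap. Dll1 made up 24.4%, 35.3% and 26.7% in the knockout and 33.1%, 36.2% and 37.1% in the wild-type mice, and knockout replicate 2 was above the lowest wild-type value. The share of Jag1 (24.8% to 33.1% over the 6 mice) and that of Dll4 (22.0% to 28.0%) overlapped between the groups.

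The receptors were each higher on average in the knockout tumors, and none passed the test. Notch3, the receptor of mural cells around vessels (ENSMUSG00000038146, chromosome 17, 32120820 to 32166880), had 12.0, 11.7 and 18.8 CPM in the knockout and 9.32, 9.22 and 9.54 CPM in the wild-type mice. The wild-type mice were nearly equal, and knockout replicate 3 stood well above the other knockout mice. The log2 fold change was 0.60 ± 0.22 (95% interval 0.07 to 1.13, unadjusted p = 0.0315, adjusted p = 0.793, edgeR), and it was 0.33 without knockout replicate 3. Notch1, the receptor whose activity maintains crypt progenitors together with Notch2 (ENSMUSG00000026923, chromosome 2, 26457903 to 26516663), had 34.1, 30.4 and 43.8 CPM against 33.0, 25.1 and 25.2 CPM. Wild-type replicate 1 fell among the knockout mice, the log2 fold change was 0.38 ± 0.18 (adjusted p = 0.793, edgeR), and it was 0.21 without knockout replicate 3. Notch2 (ENSMUSG00000027878, chromosome 3, 98013527 to 98150361) had 30.1, 32.8 and 32.5 CPM in knockout and 35.1, 20.9 and 29.4 CPM in wild-type mice. Here the wild-type mice spanned the whole range of the knockout mice (log2 fold change 0.16 ± 0.19, adjusted p = 0.862, edgeR), and without wild-type replicate 2 the difference was -0.02.

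The tested target genes, Hes1 and Nrarp, had lower means in the knockout and neither passed the test. Hes1, a basic helix-loop-helix repressor that blocks the secretory fate and the most used readout of Notch activity in the crypt (ENSMUSG00000022528, chromosome 16, 30064384 to 30067796), had 79.6, 76.2 and 80.7 CPM in the knockout and 96.1, 91.5 and 89.5 CPM in the wild-type mice. All 3 knockout mice were below all 3 wild-type mice, and the means were 78.8 ± 2.30 and 92.4 ± 3.39 CPM (SD, n = 3 each). The difference was small, a log2 fold change of -0.23 ± 0.10 (95% interval -0.46 to 0.01, unadjusted p = 0.0544, adjusted p = 0.793, edgeR). Nrarp, a small ankyrin repeat protein that Notch induces and that feeds back on it (ENSMUSG00000078202, chromosome 2, 25180758 to 25183339), had 3.28, 4.39 and 3.26 CPM against 3.51, 5.44 and 3.33 CPM. Replicate 2 of each genotype was the highest of its group, and the difference (log2 fold change -0.17 ± 0.29, adjusted p = 0.905, edgeR) became 0.09 without wild-type replicate 2. Hes5, a Hes1 paralog best known from neural progenitors (ENSMUSG00000048001, chromosome 4, 154960923 to 154962371), was not tested, with 1, 0 and 6 counts in knockout and 0 in each wild-type mouse. A count of 0 allows up to 3 counts, 0.0840 to 0.0991 CPM in the libraries at 0, for counting error only, so Hes5 was above this limit in 1 of the 6 libraries.

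**Figure D3:**
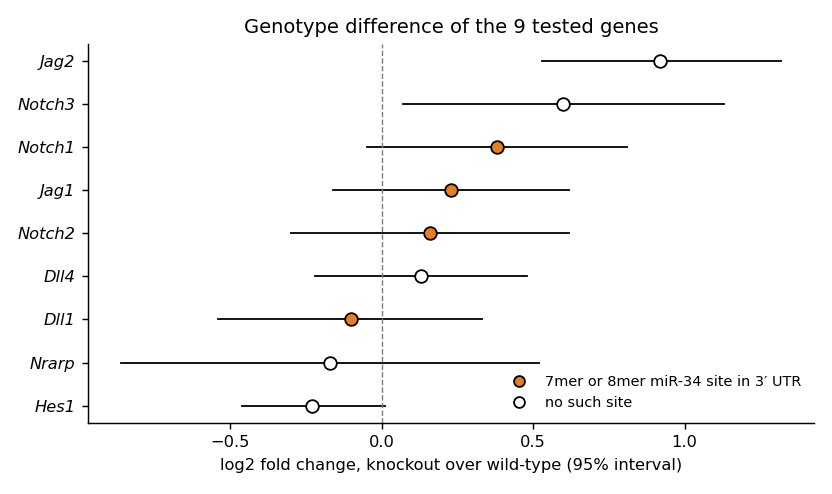
Log2 fold change of the 9 tested genes (x axis, knockout over wild-type, positive is higher in knockout) with its 95% interval from the edgeR fit, filled where the 3′ UTR holds a 7mer or 8mer miR-34 site. The intervals of Jag2 and Notch3, which have no site, exclude 0 before adjustment, and those of the 4 genes with sites include it.

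Set side by side, the 4 genes with a miR-34 site had log2 fold changes of 0.23 (Jag1), -0.10 (Dll1), 0.38 (Notch1) and 0.16 (Notch2). Their 95% intervals reached up to 0.62, 0.33, 0.81 and 0.62, so increases of up to those sizes are not excluded by these 6 mice. The gene with most sites, Notch1, had the largest value of the 4, and Dll1, with an 8mer in the shortest of the 4 UTRs, the lowest. The values did not follow the number of sites throughout, since Jag1, with 1 site, was above Notch2, with 4. Jag2 and Notch3, the pair with the largest differences among the 9, had no site of these classes. Over the 14723 tested genes with a 3′ UTR the median log2 fold change was 0.057 for genes with a 7mer or 8mer site and 0.008 for those without. The 2 medians were not matched for UTR length and carry no test.

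Levels of the genes were compared per kilobase of exon (RPKM, from TMM-scaled counts and the union of annotated exons), since longer transcripts collect more reads. Hes1 was the most abundant in each of the 6 libraries at 37.4 to 47.2 RPKM, a mean that exceeded 92.6% of tested genes. Of the 4 ligands 3 came next, with means over the 6 libraries of 5.05 RPKM for Dll1 (3.88 to 6.04), 4.72 RPKM for Jag1 (3.60 to 5.82) and 3.77 RPKM for Dll4 (3.32 to 4.06). The ranges of Dll1 and Jag1 overlapped, as did those of Jag1 and Dll4, so neighbours in this order do not differ beyond their spread. Notch2 (1.93 to 3.26 RPKM), Jag2 (1.35 to 3.21), Notch1 (1.77 to 3.08), Nrarp (1.26 to 2.11) and Notch3 (1.14 to 2.32) overlapped too, and Hes5 was last everywhere with at most 0.106 RPKM. Jag2 had rank 5 or 6 of the 10 genes in each knockout mouse and rank 7 or 8 in each wild-type mouse. The order in the middle depends on the length used, because with the longest annotated transcript the means were 3.37 RPKM for Notch1, 3.08 for Jag2 and 2.87 for Notch2.

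**Figure D4:**
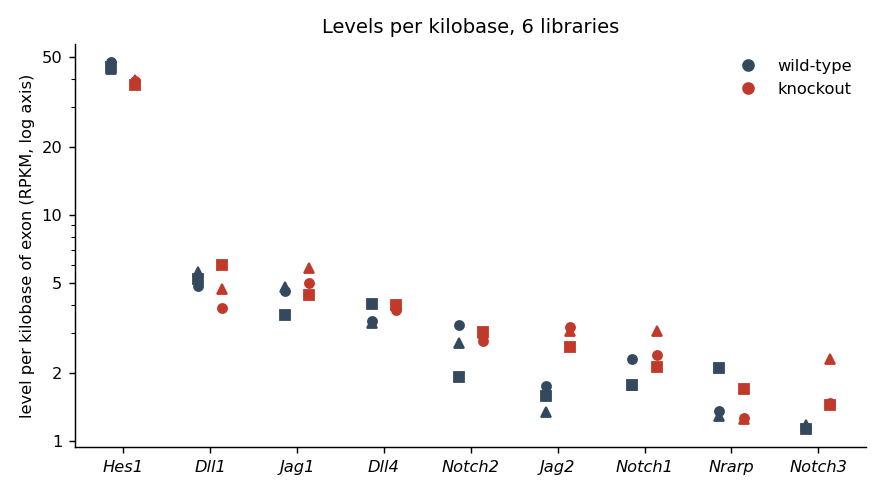
Level per kilobase of exon (y axis, RPKM, log axis) of the 9 tested genes in order of their mean, with 1 point per library, wild-type left and knockout right, as a circle, square or triangle for replicate 1, 2 or 3. Hes1 lies at 37.4 to 47.2 RPKM, far above the ligands, and Jag2 is the ligand whose groups separate.

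The rest of the pathway held no called gene. Of 51 further Notch pathway genes 47 were tested, and 0 passed in either direction with edgeR or with DESeq2. An unadjusted p under 0.05 was reached by 1 (2.13%, against 5.85% of all genes), the groups did not overlap for 3 (6.38%, against 11.2%), and the median log2 fold change was 0.09. The Hes and Hey genes other than Hes1 and Hes5, a family of nuclear factors of which some members are induced by Notch, had the highest median of the pathway lists outside the 10 genes at 0.44, with 5 of 6 tested genes above 0. Hey1, a Notch target of endothelial and mesenchymal cells, had 32.6, 19.1 and 32.0 CPM in knockout and 21.9, 14.7 and 17.1 CPM in wild-type mice. The Hey1 log2 fold change was 0.64 ± 0.25 (edgeR, adjusted p = 0.793). Hey2, a related factor of arteries, had 3.07, 0.726 and 2.59 CPM against 1.12, 1.16 and 0.616 CPM, and Heyl, found in mural cells, had 1.69, 2.38 and 4.39 CPM against 2.55, 1.89 and 1.43 CPM. For each of the 3 Hey genes at least 1 knockout mouse was inside the span of the wild-type mice.

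**Figure D5:**
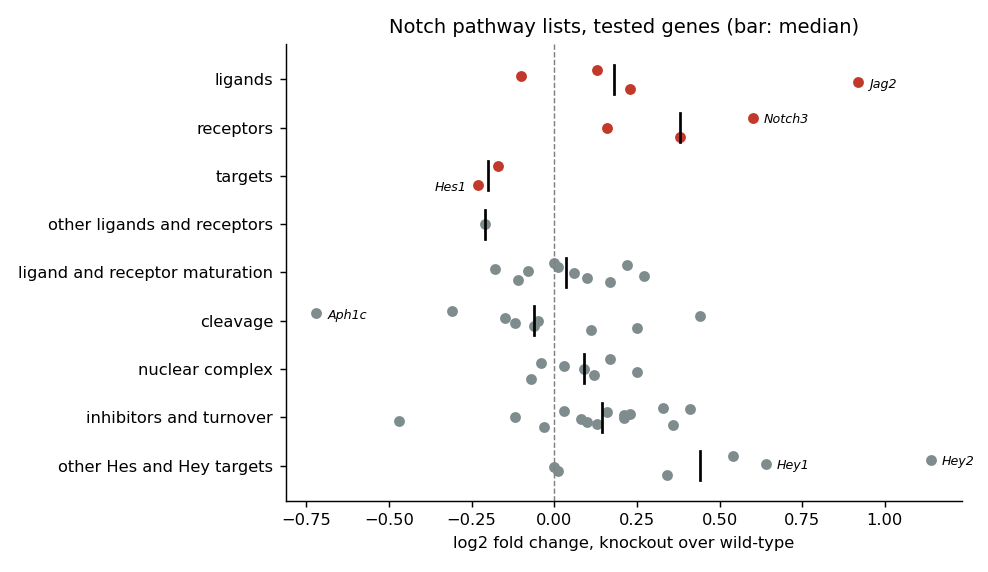
Log2 fold change (x axis, knockout over wild-type) of each tested gene of the Notch pathway lists (rows), with the 9 tested genes of the 10 in red, the other pathway genes in grey and a bar at each list's median. Most genes lie close to 0, with Jag2, Notch3, Hey1 and Hey2 to the right.

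Genes that process ligands and receptors had medians near 0. The list of ligand and receptor maturation, which holds ubiquitin ligases of ligand uptake such as Mib1 and the Fringe glycosyltransferases, had a median log2 fold change of 0.04 over 10 genes. Its smallest p belonged to Rfng, radical fringe, at -0.18 ± 0.11 (adjusted p = 0.805, edgeR). The ADAM and γ-secretase genes had a median of -0.06 over 9 genes. Psenen, a γ-secretase subunit, had the smallest p there (-0.31 ± 0.15, adjusted p = 0.793, edgeR), and Aph1b and Aph1c, close copies that can share reads and were singled out after their values were seen, had uncertain values of 0.44 and -0.72. The nuclear complex had a median of 0.09 over 7 genes, with the smallest p for the coactivator Ep300 (0.17, adjusted p = 0.829, edgeR). Rbpj, the DNA-binding factor, named here for its role and after its values were seen, had 44.2, 37.2 and 42.9 CPM in knockout and 47.2, 41.0 and 42.5 CPM in wild-type tumors. Inhibitors and turnover genes had a median of 0.14 over 14 genes, with the smallest p for the corepressor Tle3 (0.33 ± 0.18, adjusted p = 0.795, edgeR). Notch4, the endothelial receptor, had 18.6, 14.8 and 19.9 CPM against 12.6, 25.7 and 23.3 CPM, and Dll3, a ligand that acts inside the cell, held between 1 and 10 counts per library and was not tested. Sites for the miR-34 seed were present in 22 of the 47 other tested genes, against 24.8% of all tested genes with a 3′ UTR. UTR length was not matched in this comparison. The median log2 fold change of the 22 was 0.08, against 0.057 for all tested genes with a site.

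Genes of the secretory lineage, which Notch and Hes1 hold down, had a median log2 fold change of -0.17 over 7 genes and 0 passed. Atoh1, the master factor of that lineage and the best known gene repressed by Hes1, had 10.6, 18.0 and 11.5 CPM in the knockout and 15.6, 18.7 and 15.5 CPM in the wild-type mice (log2 fold change -0.31 ± 0.23, adjusted p = 0.813, edgeR). Its groups overlapped through knockout replicate 2, the same mouse that had the highest Dll1 value. Stem cell genes, which include Lgr5 and Olfm4, had a median of 0.12 over 8 genes, with 0 called.

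Markers of vessels and smooth muscle had higher means in the knockout, as Jag2 and Notch3 did, and 0 of them were called. All 12 tested mural and smooth muscle markers had a higher mean in the knockout, with summed levels of 751 to 885 CPM against 322 to 670 CPM, and 15 of 16 endothelial markers did, with 622 to 751 CPM against 424 to 606 CPM. No marker of either list was at 0 in all libraries. Epithelial markers had a lower mean in 11 of 12, with overlapping sums of 14026 to 18710 and 16547 to 20992 CPM. Some marker lists of other cell types had medians of like or larger size, and edgeR called 0 genes in each list. DESeq2 called the tuft markers Rgs13 (adjusted p = 0.0002) and Sh2d7 (0.0387). It also called Ang4 of the Paneth list (adjusted p = 0.000653) and S100b of the enteric glia and neuron list (0.0115). These genes are named because DESeq2 called them. Tuft cell markers were higher in 7 of 7 (median log2 fold change 1.21), fibroblast markers in 8 of 10 (0.58), and B and plasma cell markers were lower in 7 of 7 (-0.83). Tuft sums overlapped, at 211 to 304 CPM in knockout and 180 to 286 CPM in wild-type mice. Fibroblast sums overlapped too (770 to 2602 against 471 to 1368 CPM), and B and plasma cell sums did not (850 to 2335 against 2659 to 4752 CPM). Paneth cell markers, which label ligand-bearing neighbours of stem cells, had summed levels of 1024 to 2059 CPM against 714 to 850 CPM, with 8 of 8 higher.

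Each gene was also set against these marker sums, a comparison chosen after the values were seen and given without a test. Division by a marker sum shifts the log2 difference of every gene by the same amount, so the size and sign of a scaled difference say nothing particular to a gene. The difference of mean log2 levels for Jag2, 0.93 unscaled, was 1.11 per epithelial, 0.45 per endothelial and 0.17 per mural marker sum. Per 1000 CPM of mural markers, Jag2 was at 24.2 to 25.3 CPM in the knockout mice, and at 18.2, 34.2 and 17.2 CPM in wild-type replicates 1, 2 and 3. Wild-type replicate 2, the library with the lowest mural sum, was thus above the knockout mice and the other wild-type mice below them. Per 1000 CPM of endothelial markers Jag2 did not overlap, at 28.4 to 32.8 CPM in knockout and 20.1 to 24.0 CPM in wild-type mice. The same held per 1000 CPM of epithelial markers, at 0.971 to 1.52 CPM against 0.448 to 0.738 CPM. Under the same shifts Notch3 went from 0.56 to 0.74, 0.09 and -0.19, and Hes1 from -0.23 to -0.05, -0.71 and -0.98. The Notch3 groups overlapped per endothelial and per mural sum and not per epithelial sum. Hes1 overlapped only per 1000 CPM of epithelial markers, at 4.07 to 5.75 CPM in knockout and 4.26 to 5.81 CPM in wild-type mice. The part that the number of such cells has in these differences was not tested.

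Patterns over the 6 libraries were compared by the root mean square difference of log2 CPM after centring each gene on its own mean, over 166 genes of the other lists with at least 1 CPM. The nearest to Jag2 were Cspg4, a pericyte proteoglycan (0.198), Aph1b of the cleavage list (0.245) and Hey1 (0.267). Jag2 itself varied by 0.482 about its mean. The nearest to Notch3 were the endothelial Robo4 (0.197) and Flt1 (0.204) and the mural Pdgfrb (0.214), against a variation of 0.357. Jag1 was nearest to Adam17 (0.0623) and Notch2 to Adam10 (0.0713), the proteases that cut Notch at the cell surface, with variations of 0.207 and 0.243. Nrarp was nearest to Chga (0.15) and Chgb (0.155), granins of enteroendocrine cells, with a variation of 0.272, and all 3 were highest in wild-type replicate 2. Hes1 was nearest to Rfng (0.0753, against a variation of 0.121). For Dll4 the nearest, Dtx2, was at 0.12, no closer than the variation of Dll4 itself (0.117). The 166 genes include the other Notch pathway genes and the cell type markers, and genes outside the lists were not searched. A neighbour from the pathway or from a marker list is therefore built into the comparison. These are likenesses over 6 points that share library composition and carry no test.

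By position, 4 of the 10 genes lie on chromosome 2, with Nrarp and Notch1 separated by 1274563 bases, and Dll1 and Notch3 share chromosome 17. Nrarp, Notch1, Dll4 and Jag1, the 4 on chromosome 2, had log2 fold changes from -0.17 to 0.38. By Xist and Y-linked counts, knockout replicate 2 and wild-type replicate 3 were male. Between these males Jag2 was 18.2 against 9.40 CPM, Notch3 11.7 against 9.54 CPM and Hes1 76.2 against 89.5 CPM, and among the females Jag2 was 22.3 and 21.4 against 12.2 and 11.0 CPM. Since the groups of these 3 genes do not overlap, any split of the mice gives the same direction.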

How the data were processed

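The authors deposited raw counts per Ensembl gene for each library. The submitters' processing notes list mm10, TopHat2 2.1.0 and HTSeq 0.6.1. Strand setting, annotation release and the handling of multiply aligned reads are not given in the sources used. Symbols were matched for 45143 of 46078 identifiers (GENCODE M21). Groups and replicate numbers came from sample titles, and all 6 libraries were used. Genes were filtered with filterByExpr, scaled by TMM and tested with edgeR 4.0.16 (R 4.3.3), quasi-likelihood with robust fitting, adjusted by Benjamini-Hochberg over 17254 genes at 0.05. The intervals of fold changes use the fit's own degrees of freedom. The fit was tested on simulated data. DESeq2 1.42.0 and limma-voom 3.58.1 were alternatives, with other scalings, filters, a sex term, a replicate block and each mouse left out. The 3′ UTR followed the annotated stop codon. Genes named were the 10 members, the gene of smallest p in other pathway lists, up to 3 genes most like each member, and Hey1, Hey2, Heyl, Atoh1, Dll3 and Notch4, besides exceptions stated as such. Some of the likenesses are not reported here. The members and lists were chosen with earlier results of these data known. Reads carried no stated molecular identifiers, so detection limits cover counting error only.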

Additional observations from a re-analysis of the deposited data

How the results depend on the processing

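The fold changes and calls of the 9 tested Notch genes were compared under 16 alternatives, 144 values in all. The alternative threshold, an adjusted p under 0.1, reused the main fit, so its fold changes kept their direction by construction. Of these 140 kept their direction and their side of the threshold, and Jag2 passed with DESeq2 (log2 fold change 0.92, adjusted p = 0.000318), so that the count of called Notch genes went from 0 to 1. Jag2 had log2 fold changes from 0.83 to 1.01 over its alternatives, with adjusted p from 0.0885 to 1 apart from DESeq2. With a mouse left out, Dll1 ranged from -0.28 to 0.03 (positive without knockout replicate 1), Notch2 from -0.02 to 0.33 and Nrarp from -0.32 to 0.09, both changing sign without wild-type replicate 2. The median over the 9 ranged from 0.11 to 0.26 when a mouse was left out. Over all genes 16 were called, 110 with DESeq2, and between 9 and 41 with a mouse left out, and the cause was not tested. With 8mer sites alone 2 of the genes, Dll1 and Notch2, held a site. Per mural marker sum the Notch3 difference was -0.19, a scaling that shifts every gene alike, so this sign change is set by the marker sum. Whether equal replicate numbers pair the mice is not settled by these values. Deviations of same-numbered libraries correlated at 0.218, 0.273 and 0.081, and those of other pairs at -0.297 to 0.179. Each wild-type mouse was closest to the knockout mouse of its number, but knockout replicate 3 was closest to wild-type replicate 1 (0.179). The replicate block gave 14 called genes, none of them a Notch gene, with Jag2 at 0.93 (adjusted p = 0.233, edgeR). Hes5 alone of the 10 had too few counts to test, and whether depth or absence accounts for this was not tested. Nrarp, at 93 to 173 counts per library, had the largest SE of the 9 (0.29).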
